A study of Homo sapiens with 16 samples.

Results

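Reverse transcription stops were compared between HCT116-shDKC1 cells, in which DKC1 was knocked down with the hairpin named shDKC1-1, and wild-type HCT116 cells, a human colorectal carcinoma line. Each population had 4 libraries of polyadenylated RNA, 2 treated with CMC and Terminator and 2 CMC- controls, which pair into 2 tables per population. CMC was applied at 0.2 M for 20 min, followed by carbonate for 6 h. The controls had no Terminator, and per the labels the treated libraries also differ from them by AP5 and XhoI entries, so the response described here belongs to CMC, Terminator and those steps together. A single hairpin in a single line was used, and the labels describe no nontargeting hairpin. The word Lacz stands in the table names of both populations, and its meaning was not resolved here. The labels do not say whether replicates came from separate cultures, so p-values measure only the spread between these libraries. At each position the stop percentage is the share of covering reads that end there, and the response is the log2 ratio of the treated to the control stop percentage in 1 table. Of 719918 positions in the series, 228970 were listed in at least 1 of the 4 tables and 30328 in all 4. Of those, 26153 positions (9660 uridines and 16493 other bases) were tested, namely those where 2 or more libraries held 10 or more stop reads. A separate set of 8052 positions was listed in both HCT116 tables and in neither HCT116-shDKC1 table.

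DKC1 encodes dyskerin, the pseudouridine synthase of H/ACA ribonucleoproteins. In these particles a guide RNA pairs with the target on both sides of a uridine, which dyskerin then isomerises to pseudouridine. Their best known targets lie in the small and large subunit rRNAs and, through the related Cajal body RNAs, in the spliceosomal snRNAs, whereas stand-alone enzymes such as TRUB1, PUS1 and PUS7 act on tRNAs and mRNAs without a guide. CMC forms a stable adduct on pseudouridine at which reverse transcriptase stops, and Terminator digests RNA that carries a 5′ monophosphate.

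The positions called for a difference in response between the populations were rRNA uridines, with 1 rRNA C near a called uridine. A total of 24 uridine positions were called lower in HCT116-shDKC1 cells at an adjusted p under 0.05, which is 0.248% of the tested uridines, and 0 (0.0%) were called higher. DESeq2 called 12 lower and 0 higher, and at an unadjusted p under 0.05 edgeR had 338 lower and 11 higher. Over all bases 27 positions were called lower (0.103%). The 24 uridine positions are 8 distinct sequences, each annotated in 3 rDNA copies whose reads cannot be told apart, and all 3 copies of each were called. These 8 uridines are given here with the bases around them because the main result rests on them. A ninth, at 18S base 296, is shown because it was listed in both HCT116 tables and in no HCT116-shDKC1 table. The sequences are those of the deposited tables, on the plus strand of chromosome 21 in build hg38, written 5′ to 3′ as DNA with the stop uridine as a capital T. The bases of 18S rRNA are numbered as the annotated nucleotide less 1, and those of 28S and 5.8S rRNA as the annotated nucleotide of RNA28SN2 and RNA5-8SN2.
28S nucleotide 4282, chr21:8218158-8218178: cgcttgatctTgattttcagt
18S base 1445, chr21:8211065-8211085: cccaacttctTagagggacaa
28S nucleotide 4347, chr21:8218223-8218243: ttttgggtttTaagcaggagg
28S nucleotide 4995, chr21:8218871-8218891: gtttcgtacgTagcagagcag
28S nucleotide 3870, chr21:8217746-8217766: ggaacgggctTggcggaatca
28S nucleotide 4285, chr21:8218161-8218181: ttgatcttgaTtttcagtacg
18S base 918, chr21:8210538-8210558: aggccatgatTaagagggacg
28S nucleotide 3830, chr21:8217706-8217726: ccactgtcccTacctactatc
18S base 296, chr21:8209916-8209936: ttggtgactcTagataacctc
The bases 296, 918 and 1445 of 18S rRNA belong to the pseudouridines mapped in human 18S rRNA. The windows of 28S nucleotides 4282 and 4285 overlap, since the uridines lie 3 nucleotides apart.

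The largest difference was at 28S nucleotide 4282. With CMC and Terminator, 253 of 5685 and 435 of 10133 covering reads stopped there in the HCT116-shDKC1 libraries, against 377 of 5219 and 539 of 7613 in the HCT116 libraries. The stop percentages were 4.45 and 4.29 in HCT116-shDKC1 cells and 7.22 and 7.08 in HCT116 cells. In the CMC- libraries they were 1.72 and 1.45 in HCT116-shDKC1 cells and 1.33 and 1.11 in HCT116 cells. Stops at this uridine were therefore fewer after treatment and slightly more frequent without it in the knockdown. The response was 1.37 and 1.57 in HCT116-shDKC1 cells and 2.44 and 2.67 in HCT116 cells, and the populations did not overlap. The fitted difference was -1.13 ± 0.15 (SE, on the log2 odds of stopping against passing) with an adjusted p of 0.0045 by edgeR's quasi-likelihood test with Benjamini-Hochberg adjustment over all tested positions. At nucleotide 4285, 3 nucleotides downstream, the response was 1.65 and 1.85 in HCT116-shDKC1 cells and 2.43 and 2.52 in HCT116 cells. Its fitted difference was -0.77 ± 0.13 (adjusted p = 0.0293, same test).

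In 18S rRNA, base 1445 showed the largest difference. Stop percentages with CMC and Terminator were 6.23 and 5.38 in HCT116-shDKC1 cells and 10.3 and 10.6 in HCT116 cells. In the CMC- libraries they were 3.58 and 3.05 in HCT116-shDKC1 cells and 3.46 and 3.14 in HCT116 cells, so the control levels of the populations overlapped and the treated levels did not. The response was 0.80 and 0.82 in HCT116-shDKC1 cells and 1.58 and 1.75 in HCT116 cells, a fitted difference of -0.93 ± 0.12 (adjusted p = 0.0045, edgeR). Base 918 was alike in this respect. Its treated stop percentages were 6.18 and 5.86 in HCT116-shDKC1 cells and 9.34 and 9.85 in HCT116 cells, over control values of 4.09 and 4.12 in HCT116-shDKC1 cells and 4.25 and 3.85 in HCT116 cells. The response there was 0.60 and 0.51 in HCT116-shDKC1 cells, against 1.14 and 1.36 in HCT116 cells, with a fitted difference of -0.76 ± 0.12 (adjusted p = 0.0249, edgeR).

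The other 4 called uridines lie in 28S rRNA. At nucleotide 4347 the response was 1.23 and 1.24 in HCT116-shDKC1 cells and 2.10 and 2.05 in HCT116 cells (fitted difference -0.91 ± 0.12, adjusted p = 0.0045, edgeR). At nucleotide 4995, near the 3′ end, it was 1.68 and 1.56 in HCT116-shDKC1 cells and 2.25 and 2.60 in HCT116 cells (-0.87 ± 0.15, adjusted p = 0.0296, edgeR). In both uridines the response of each HCT116-shDKC1 table lay below that of each HCT116 table. Nucleotide 3870 had responses of 1.04 and 1.02 in HCT116-shDKC1 cells and 1.75 and 1.84 in HCT116 cells (-0.80 ± 0.12, adjusted p = 0.0194, edgeR). Nucleotide 3830 had 1.30 and 1.59 in HCT116-shDKC1 cells and 2.08 and 2.24 in HCT116 cells (-0.75 ± 0.14, adjusted p = 0.0485, edgeR). At all 8 uridines the treated stop percentage stayed above the control one in both HCT116-shDKC1 tables, with a response of at least 0.51. Counts behind the called uridines were high, with 239 to 1689 treated and 155 to 568 control stop reads per library.

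**Figure D1:**
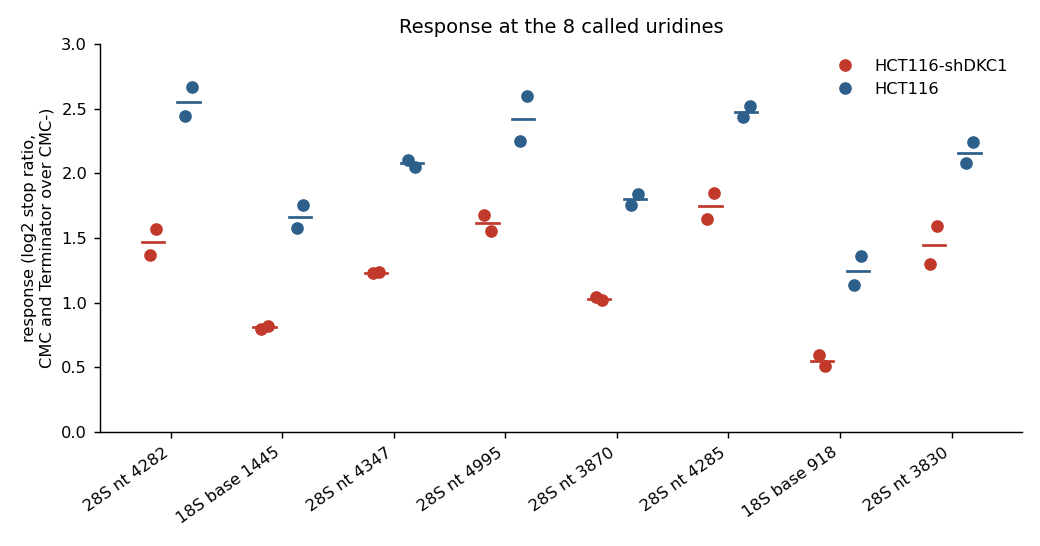
Response (log2 ratio of the stop percentage with CMC and Terminator to that without CMC, y axis) at the 8 called rRNA uridines, with 1 point per table and a bar at the mean of 2 tables, HCT116-shDKC1 in red left of HCT116 in blue. At every uridine both HCT116-shDKC1 points lie below both HCT116 points, for example 1.37 and 1.57 against 2.44 and 2.67 at 28S nucleotide 4282.

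The 8 differences kept their sign under every alternative setting, but the calls did not hold under all of them. Without the block that ties each treated library to its own control, 0 uridines were called (180 lower and 7 higher at an unadjusted p under 0.05), and 0 were called when stop reads were scaled to library totals or by TMM instead of to passing reads. The 8 differences then ran from -0.72 to -0.43 with library totals and from -0.69 to -0.40 with TMM, against -1.13 to -0.75 before. Leaving out HCT116 replicate 1 or HCT116 replicate 2 also gave 0 calls, whereas leaving out HCT116-shDKC1 replicate 1 or 2 left 9 or 21 uridine positions, and with 1 copy per sequence 3 uridines were called.

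The treated and the control side of the response were also fitted apart. With CMC and Terminator, the fitted difference at the 8 uridines ran from -0.92 at 18S base 1445 to -0.52 at 28S nucleotide 4285, and it was -0.75 at 28S nucleotide 4282. In the CMC- libraries it ran from 0.01 at 18S base 1445 to 0.38 at 28S nucleotide 4282, and it was 0.02 at 18S base 918. At the 2 uridines of 18S rRNA the control-side value was thus near 0, and at the 6 uridines of 28S rRNA it ran from 0.17 ± 0.15 to 0.38 ± 0.16 (SE), with an adjusted p of 1 at each (edgeR). Neither side alone gave a call at any position (0.0% lower and 0.0% higher in both, edgeR). At an unadjusted p under 0.05, 233 uridines were lower and 15 higher on the treated side, and 57 lower and 66 higher on the control side. DESeq2 also called 0 positions on each side.

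The only other base called was a C at 18S base 1443, 2 nucleotides before the called uridine 1445, with all 3 copies called (0.0182% of the tested bases other than U, all lower). Its treated stop percentages were 3.18 and 2.97 in HCT116-shDKC1 cells and 4.28 and 4.48 in HCT116 cells. The response was 0.59 and 0.53 in HCT116-shDKC1 cells, against 1.20 and 1.30 in HCT116 cells (fitted difference -0.73 ± 0.13, adjusted p = 0.0468, edgeR). No base other than U was called higher (0.0%). At an unadjusted p under 0.05, 377 of these bases were lower and 22 higher, so lower responses were not confined to uridines.

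To see whether the difference reached beyond the called uridines, rRNA uridines were marked in HEK293T cells, a human embryonic kidney line whose libraries are not part of the comparison. A uridine was marked if its response was at least 1 in both HEK293T Terminator tables with at least 10 treated stop reads. Of 112 distinct rRNA uridines marked this way, 110 were listed in all 4 tables and tested, and they include all 8 called uridines. The mean response was lower in HCT116-shDKC1 than in HCT116 cells at 108 of the 110, where 59.0% of all distinct tested uridines were lower. At 82 of them both HCT116-shDKC1 responses lay below both HCT116 responses, which held for 20.6% of all distinct tested uridines, and at 0 did both lie above (10.8% of all). Counted by position with copies, 22.3% of all tested uridines had both HCT116-shDKC1 responses below both HCT116 responses and 9.73% above, with the mean lower at 60.4% and higher at 39.6%. The median response of the 110 uridines was 1.61 and 1.57 in the HCT116-shDKC1 tables and 1.90 and 1.93 in the HCT116 tables. The table medians did not overlap, but 2 tables against 2 cannot reach a p below 0.333 in a two-sided exact permutation test. The median difference was -0.30, with quartiles of -0.45 and -0.19, and 59 of the 110 had an unadjusted p under 0.05. The fitted median over all copies was -0.33, and it was -0.196 with stop reads scaled to library totals and -0.161 with TMM. The differences ran from -1.08 to 0.12 on the log2 scale.

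The medians of the 2 subunits lay close to each other. In 18S rRNA all 40 had a lower mean response in HCT116-shDKC1 cells, with a median difference of -0.32. In 28S rRNA 65 of 67 did, with a median of -0.29, and in 5.8S rRNA 3 of 3 did, with a median of -0.43. Those 3 count nucleotide 68 both in RNA5-8SN2 and in the entry RF00002 on chromosome 20. The 2 exceptions were 28S nucleotides 3625, with 2.36 and 2.35 in HCT116-shDKC1 cells and 2.31 and 2.39 in HCT116 cells, and 4339, with 1.56 and 1.35 in HCT116-shDKC1 cells and 1.15 and 1.51 in HCT116 cells. Restricting the marks to a response of at least 2 in HEK293T cells left 29 uridines, all 29 lower, with a median of -0.33. Marking with CMC alone, in the HEK293T tables without Terminator, gave 64 uridines, all 64 lower, with a median of -0.32.

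Several marked uridines that missed the threshold differed nearly as much as those that passed. At 28S nucleotide 4622 the response was 1.38 and 1.35 in HCT116-shDKC1 cells and 2.09 and 2.02 in HCT116 cells (adjusted p = 0.109, edgeR). Base 1232 of 18S rRNA had 0.96 and 1.32 in HCT116-shDKC1 cells and 1.85 and 1.74 in HCT116 cells (adjusted p = 0.156, edgeR), and base 36 had 1.09 and 1.20 in HCT116-shDKC1 cells and 1.74 and 1.78 in HCT116 cells (adjusted p = 0.211, edgeR). In 5.8S rRNA, nucleotide 68 of RNA5-8SN2 had 0.86 and 1.05 in HCT116-shDKC1 cells and 1.58 and 1.504 in HCT116 cells (adjusted p = 0.0889, edgeR). Its entry RF00002 on chromosome 20 differed less, with 0.48 and 0.41 in HCT116-shDKC1 cells and 0.77 and 0.66 in HCT116 cells (fitted difference -0.33 ± 0.22). At these 4 sites, picked after their values were seen, the tables of the 2 populations did not overlap.

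The 2 marked rRNA uridines with the strongest response differed little, which did not hold for all strong responders. At 28S nucleotide 3804 the response was 3.10 and 3.11 in HCT116-shDKC1 cells and 3.16 and 3.31 in HCT116 cells, with treated stop percentages of 18.7 and 16.6 in HCT116-shDKC1 cells and 17.7 and 16.8 in HCT116 cells. At 28S nucleotide 4518 it was 3.12 and 3.14 in HCT116-shDKC1 cells and 3.03 and 3.33 in HCT116 cells. The fitted differences were -0.12 ± 0.12 at 3804 and -0.06 ± 0.13 at 4518 (adjusted p = 1 at both, edgeR), so the differences of the called uridines lie several SE away. The populations did not overlap at 3804 and overlapped at 4518. Nucleotide 3744, also a strong responder, had 2.57 and 2.83 in HCT116-shDKC1 cells and 3.11 and 3.31 in HCT116 cells (-0.56 ± 0.14, adjusted p = 0.300, edgeR). Neighbours also differed: between nucleotides 4279 and 4298 of 28S rRNA, the 5 marked uridines had mean differences of -0.39, -1.08, -0.73, -0.28 and -0.49. Of the 110 marked uridines, 33 have another marked uridine within 2 nucleotides, so neighbouring values are not independent of each other.

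**Figure D2:**
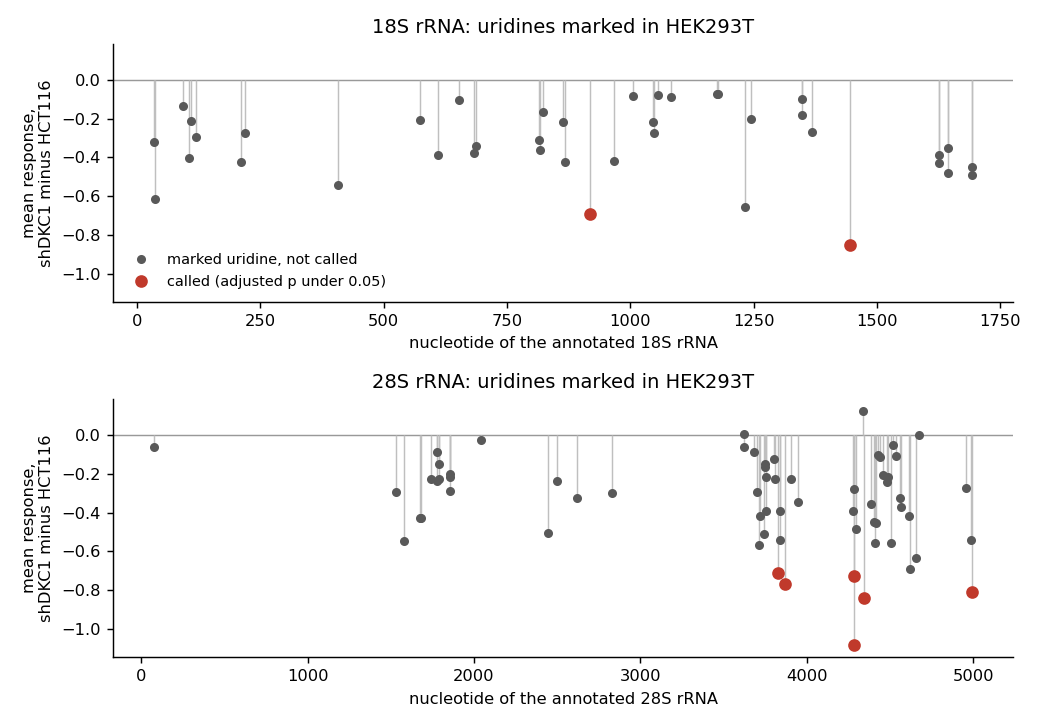
Difference in mean response (HCT116-shDKC1 minus HCT116, log2, y axis) at uridines of 18S (top) and 28S rRNA (bottom) marked in HEK293T cells, by nucleotide of the annotated transcript (x axis), with called uridines in red. Nearly all stems point down, with lengths that differ between neighbours. Of the marked uridines, all 40 in 18S rRNA and 65 of 67 in 28S rRNA were lower. Nucleotides 2394 and 729 of the copy RNA28SN3, both lower, are counted among the 67 but not drawn.

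The shift was graded by the response in HEK293T cells and was not limited to uridines. At 230 distinct rRNA uridines with a HEK293T response under 0.5 in both tables, the median difference was -0.03, with 136 lower and 49 in which both HCT116-shDKC1 tables lay below both HCT116 tables. At 47 marked rRNA positions with another base it was -0.20, with 41 lower and 22 without overlap. Among all tested bases other than U, the mean was lower at 62.1% and higher at 37.9%, with both HCT116-shDKC1 responses below both HCT116 responses at 22.0% and above at 9.23%. Over all bases the mean was lower at 61.5% and higher at 38.5%, with 22.1% below and 9.42% above without overlap. Of these 47, 29 lie within 2 nucleotides of a marked uridine. At 793 rRNA positions of another base with a low HEK293T response it was -0.08. In mRNA, 164 marked uridines had a median of -0.08, with 94 lower, 35 without overlap on the lower side and 15 on the higher side. Over all tested positions the median fitted difference was -0.08, so a group median of that size does not set the group apart from the rest.

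**Figure D3:**
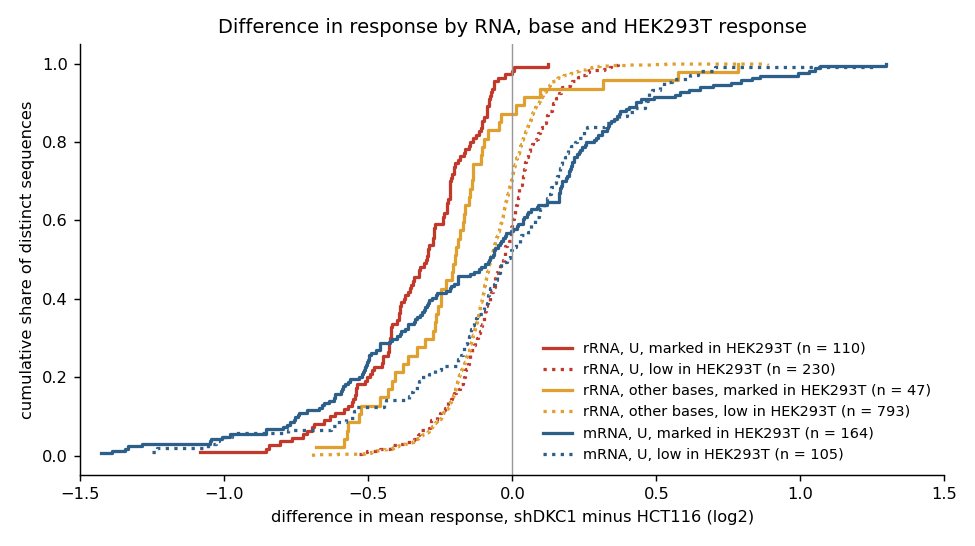
Cumulative share of distinct sequences (y axis) by difference in mean response (HCT116-shDKC1 minus HCT116, log2, x axis), for rRNA uridines (red), other rRNA bases (yellow) and mRNA uridines (blue) with a response of at least 1 (solid, marked) or under 0.5 (dotted, low) in both HEK293T Terminator tables. The solid red line lies left of 0 for 108 of 110 sequences, while the dotted red line lies left of 0 for 136 of 230.

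Grouping rRNA positions by their own mean response over the 4 tables gave the same grading, under the same limit on weak responders. For uridines the median difference was -0.01 below 0.5, -0.07 from 0.5 to 1, -0.15 from 1 to 1.5, -0.27 from 1.5 to 2 and -0.27 at 2 or more. For other rRNA bases it was -0.04, -0.08, -0.14, -0.20 and -0.26 in the same order. Uridines and other bases of rRNA with large responses thus had medians of like size, but the tables of the populations were apart on the lower side at 58.0% of the uridines with a response of 2 or more and at 24.5% of the other bases. In mRNA the medians for uridines were -0.03, -0.10, -0.09, -0.08 and -0.08 and did not follow the size of the response. For other bases of mRNA they were -0.05, -0.08, -0.14, -0.11 and -0.17, and for mitochondrial uridines -0.03, -0.10, -0.16 and -0.15 in the first 4 ranges. At 54 snRNA uridine sequences with a response of 2 or more, many of them near-identical copies, the median was -1.09. With each site represented by its deepest copy, 25 snRNA uridines with a mean response of at least 1.5 had a median of -0.19. The median of -1.09 therefore does not describe distinct snRNA sites. The mean response includes the tables compared, so this grouping describes the data and tests nothing.

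**Figure D4:**
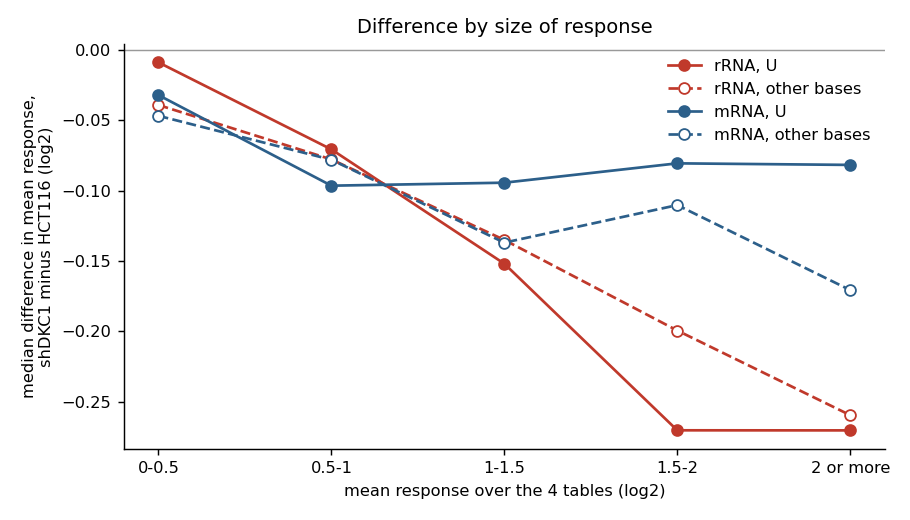
Median difference in mean response (HCT116-shDKC1 minus HCT116, log2, y axis) by mean response over the 4 tables (x axis, 5 ranges), for rRNA (red) and mRNA (blue), uridines as solid lines and other bases as dashed lines. Both rRNA lines fall to about -0.27 and -0.26 at a response of 2 or more, and the mRNA uridine line stays between -0.03 and -0.10.

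Spliceosomal snRNAs are guided to their pseudouridines by Cajal body H/ACA RNAs, but their reads were few here. Among 25 U of the U1, U2, U4, U5, U6 and 7SK RNAs with a mean response of at least 1.5, each represented by its deepest copy, 14 had a lower mean in HCT116-shDKC1 cells. In 6 both HCT116-shDKC1 tables lay below both HCT116 tables and in 1 above, and 0 were called. These shares are near the 59.0% lower, 20.6% below and 10.8% above without overlap among all distinct tested uridines. U2 accounted for 9 of these sites, 7 of them lower, and U6 for 2, both lower. At nucleotide 40 of U6 the response was 1.88 and 2.06 in HCT116-shDKC1 cells and 2.95 and 3.10 in HCT116 cells, and at nucleotide 31 it was 2.60 and 2.14 in HCT116-shDKC1 cells and 3.74 and 2.61 in HCT116 cells. At nucleotide 54 of U2 it was 1.55 and 1.25 in HCT116-shDKC1 cells and 2.79 and 1.92 in HCT116 cells. These 3 sites, picked after their values were seen, do not overlap between the populations, but rest on 1 to 16 control stop reads per library. U5 went the other way in part, with a lower mean at only 2 of 7 sites.

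Large snRNA differences at single marked uridines, picked after their values were seen, were found in both directions. The response was higher at nucleotide 52 of RNU5E-1, with 4.27 and 2.44 in HCT116-shDKC1 cells and 2.38 and 1.90 in HCT116 cells, and lower at nucleotide 10 of RNU5F-1 and nucleotide 72 of U4 (RNU4-2). At all 3 the responses of the populations did not overlap. The RNU5E-1 site rested on 1 to 5 control stop reads per library and was not called (fitted difference 1.02 ± 0.69). Its treated stop percentages were 21.7 and 14.8 in HCT116-shDKC1 cells and 21.7 and 22.5 in HCT116 cells, so they were not higher in the knockdown. RNU5F-1 had 0.63 and 0.96 in HCT116-shDKC1 cells and 1.99 and 2.98 in HCT116 cells (fitted difference -1.72 ± 0.71, adjusted p = 1, edgeR). At nucleotide 72 of RNU4-2, treated stop percentages were 27.8 and 27.1 in HCT116-shDKC1 cells and 39.2 and 41.7 in HCT116 cells. The response was 2.77 and 2.37 in HCT116-shDKC1 cells and 4.04 and 4.15 in HCT116 cells (fitted difference -1.87 ± 0.53, adjusted p = 1, edgeR). The RNU4-1 copy overlapped between the populations, with 3.16 and 2.55 in HCT116-shDKC1 cells and 3.04 and 4.33 in HCT116 cells. Nucleotide 53 of U5 (RNU5B-1) had 2.93 and 3.05 in HCT116-shDKC1 cells and 3.03 and 2.89 in HCT116 cells, and nucleotide 5 of U1 (RNU1-1) had 2.34 and 3.33 in HCT116-shDKC1 cells and 2.64 and 2.35 in HCT116 cells. In 7SK, an RNA that holds the elongation factor P-TEFb inactive, nucleotide 246 had 1.04 and 1.13 in HCT116-shDKC1 cells and 1.72 and 1.43 in HCT116 cells, and nucleotide 249 had 2.31 and 2.47 in HCT116-shDKC1 cells and 1.87 and 2.59 in HCT116 cells. The sites of 1 RNA thus did not move together.

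Mitochondrial RNA is modified by stand-alone enzymes, with no H/ACA guide. Nucleotide 1397 of the 16S rRNA (MT-RNR2), a site of RPUSD4, had treated stop percentages of 5.03 and 4.46 in HCT116-shDKC1 cells and 4.42 and 4.2003 in HCT116 cells. Its response was 1.94 and 1.53 in HCT116-shDKC1 cells and 2.15 and 1.82 in HCT116 cells, which overlap (fitted difference -0.26 ± 0.23, adjusted p = 1, edgeR). The 9 marked uridines of the mitochondrial rRNAs had a median difference of -0.25, with 7 lower, and the 10 of mitochondrial tRNAs a median of -0.11, with 6 lower. In both groups 3 were lower without overlap, and 2 of the mitochondrial tRNA uridines were higher without overlap, where 20.6% of all distinct tested uridines were lower and 10.8% higher without overlap. Mitochondrial mRNAs gave a median of -0.12 over 33 marked uridines, with 24 lower and 7 without overlap, against 59.0% lower among all distinct tested uridines. No mitochondrial position was called, and the medians of the mitochondrial and nuclear rRNA uridines were not tested against each other.

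tRNA uridines had the largest median response of the classes compared. Over 91 distinct tRNA uridines the median response was 2.00 and 1.85 in the HCT116-shDKC1 tables and 2.02 and 1.86 in the HCT116 tables, with a median difference of -0.05. Of these, 17 were lower and 20 higher without overlap, and 0 were called. The GTTCNANNC context (searched on the transcript strand only, the stop at its second T), in which TRUB1 modifies the T loop, held 8 distinct uridine sequences, 0.134% of those tested. Of these, 7 had a lower mean response and 3 did so without overlap, with a median of -0.38, beside 59.0% lower and 20.6% without overlap among all distinct tested uridines. In tRNA-Leu-TAG-3-1, nucleotide 64 had 1.803 and 1.07 in HCT116-shDKC1 cells and 2.02 and 2.75 in HCT116 cells (fitted difference -1.05 ± 0.60, adjusted p = 1, edgeR). For the PUS7 context the pattern TNTAN was searched, with any base in its last place and the stop at the third of its letters. This pattern held 203 distinct sequences, 3.40% of those tested, with a median of -0.04 and 112 lower, a share below those 59.0%. A match of letters names a context, not the enzyme, and 28S nucleotide 4347 also matches TNTAN.

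No mRNA uridine was called in either direction among 2273 tested (0 of 2177 distinct sequences). Both HCT116-shDKC1 tables lay below both HCT116 tables at 19.6% of them and above at 12.1%, near the 20.6% and 10.8% of all distinct tested uridines. Coding sequence (734 distinct uridines, median -0.10), 3′ UTR (265, median -0.07) and 5′ UTR (160, median -0.04) had medians near that of all positions. Of the 164 marked mRNA uridines, 5 had an unadjusted p under 0.05 (edgeR), all 5 of them lower in HCT116-shDKC1 cells. Of all 9660 tested uridine positions, 338 were lower and 11 higher at that level. Neither the count of 5 nor its direction thus sets the marked mRNA uridines apart. Among the 5, RPL24, a protein of the large ribosomal subunit, had 0.13 and 0.59 in HCT116-shDKC1 cells and 1.57 and 1.93 in HCT116 cells at nucleotide 78 (fitted difference -1.57 ± 0.51, adjusted p = 1, edgeR). On the other side RPL6, of the same subunit and not among the 5, had 2.10 and 2.42 in HCT116-shDKC1 cells and 1.15 and 1.23 in HCT116 cells at nucleotide 348 (1.22 ± 0.41, adjusted p = 1, edgeR). Both were picked after their values were seen, and at both the populations did not overlap.

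Among the mRNA uridines with the highest responses, the 5 reported here showed no common direction. RPLP0, which anchors the stalk of the large subunit, had 2.64 and 2.94 in HCT116-shDKC1 cells and 2.59 and 2.31 in HCT116 cells at nucleotide 695. RPL23 had 2.09 and 1.92 in HCT116-shDKC1 cells and 2.66 and 2.11 in HCT116 cells at nucleotide 395. RPL35A, RPLP2 and ACTG1 overlapped between the populations, and none of these 5 was called. Across 74 ribosomal protein genes, 832 uridines had a median difference of -0.10, with 506 lower and 0 called. Across 17 translation factor genes, 347 distinct uridines had a median of -0.12, with 215 lower and 0 called. The share of lower uridines in both lists is near the 59.0% of all distinct tested uridines. Of the H/ACA core and assembly genes, NHP2 alone had a tested uridine, at 2.89 and 2.00 in HCT116-shDKC1 cells and 0.97 and 1.60 in HCT116 cells (1.07 ± 0.69, adjusted p = 1, edgeR). In NPM1, a nucleolar chaperone, 4 of 5 uridines had a lower mean and 0 were called.

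Positions listed for 1 population only were counted next, since a site that loses its stops can drop out of a table. Every position in a table had 5 or more stop reads with treatment and 1 or more without it, and a response not below 0, so absence is not a stop count of 0. Both HCT116-shDKC1 tables and no HCT116 table listed 7435 positions, and both HCT116 tables and no HCT116-shDKC1 table listed 8052. With at least 10 treated stop reads in both tables the counts were 1134 and 1581 in the same order, and with at least 20 they were 429 and 775. Among uridines they were 2215 for HCT116-shDKC1 only and 2516 for HCT116 only, and at 20 or more stop reads 85 and 154. Positions in 1 table of each population and not in the others numbered 6874 to 12000, so listing differed as often between replicates of 1 population. Near a uridine listed in HCT116 only, the treated coverage of the closest position in all 4 tables was 1.10 times as high in HCT116-shDKC1 as in HCT116 cells (median of 1178). Near a uridine listed in HCT116-shDKC1 only, it was 0.891 times as high in HCT116 as in HCT116-shDKC1 cells (median of 1061).

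**Figure D5:**
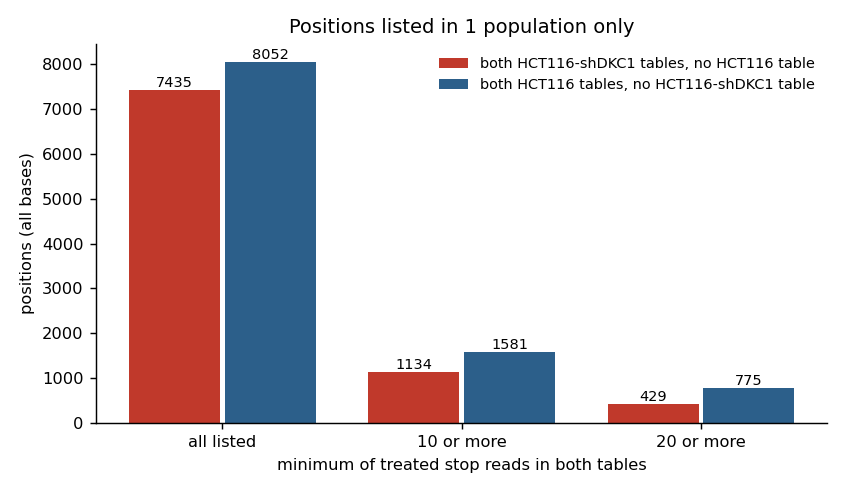
Number of positions (all bases, y axis) listed in both tables of 1 population and in none of the other, by the minimum of treated stop reads in both tables (x axis), HCT116-shDKC1 in red left of HCT116 in blue. The bars reach 7435 and 8052 over all listed positions and 429 and 775 at 20 or more stop reads.

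Most of the excess of HCT116-only positions with many stop reads lay in rRNA, at uridines and other bases alike. At 20 or more treated stop reads, 30 rRNA uridine positions (16 distinct sequences) were listed in HCT116-shDKC1 only and 86 (39 distinct) in HCT116 only. A copy of the same sequence was listed for the other population at some of them. Without a minimum of stop reads, 22 distinct rRNA uridines with no copy so listed were in HCT116-shDKC1 only and 34 in HCT116 only. Other rRNA bases had 187 positions in HCT116-shDKC1 only and 389 in HCT116 only. For mRNA uridines the counts were 17 and 17, and for mitochondrial mRNA uridines 12 and 17. With a response of at least 0.5 required too, 5 uridine positions (5 distinct sequences) were left in HCT116-shDKC1 cells and 6 (4 distinct) in HCT116 cells. Most of the deep HCT116-only uridines thus had responses near 0 and sat at the edge of listing. At 28S nucleotide 2362, for example, the HCT116 responses were 0.09 and 0.18, over treated stop percentages of 4.69 and 4.11.

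A clear exception was 18S base 296, with the most stop reads of all HCT116-only uridines. It was in neither HCT116-shDKC1 table, in any of its 3 copies. In HCT116 cells 518 of 11220 and 638 of 14708 treated reads stopped there, 4.62% and 4.34%, against 2.90% and 2.49% in the CMC- libraries. The responses were 0.67 and 0.80 in HCT116 cells, and 1.29 and 1.36 in the HEK293T tables, which makes it a marked uridine. A position 4 nucleotides away was listed in all 4 tables, with treated coverage 1.18 times as high in HCT116-shDKC1 as in HCT116 cells. At the HCT116 stop percentage that coverage would give 443 or more stop reads in each HCT116-shDKC1 library, well above the 5 that every listed position had. Every listed position also had a response not below 0. The base could thus be absent with many stop reads left, if its response fell below 0. Its stop percentages in HCT116-shDKC1 cells were not analysed here. Of the 112 marked rRNA uridines, 0 were listed in both HCT116-shDKC1 tables only and 1, this base, in both HCT116 tables only. Of 1003 marked mRNA uridines, 19 were listed in both HCT116-shDKC1 tables only and 26 in both HCT116 tables only, with 206 in all 4.

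The knockdown itself could not be checked from these tables. DKC1 had 5 listed positions in all and none in every table. The highest coverage of any of them in the CMC- libraries was 6 and 2 reads in HCT116-shDKC1 cells and 16 and 20 in HCT116 cells. Each of these values comes from a different position, so they do not compare the populations. Library totals behind the deposited RPM ran from 22500000 to 31300000 reads, and tested positions had a median of 523 treated and 856 control covering reads. The epithelial keratins KRT8, KRT18 and KRT19, usual in this carcinoma line, had 89, 32 and 30 positions in all 4 tables, while VIM, PTPRC, ALB and COL1A1, of other cell types, had none in any of the 4 tables, and EPCAM and CDH1, also epithelial, had none in all 4. HCT116-shDKC1 tables listed 114563 and 99369 positions and 113370 and 103050 were listed for HCT116, and the median response of tested positions was 0.63 and 0.52 in HCT116-shDKC1 cells and 0.61 and 0.67 in HCT116 cells. The value of HCT116-shDKC1 replicate 2 was the lowest of the 4 over all positions, and its part in the results was not tested beyond the fits without it. Centring the differences on the median of other bases left the median of the marked rRNA uridines at -0.25, against -0.33 before (fitted, all copies).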

How the data were processed

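Stops were analysed in 8 libraries, 2 per group. Per the submitters' processing notes, the tools include cutadapt 2.8 and STAR, and the build is hg38. Per the file headers, the deposited HCT116 and HCT116-shDKC1 Terminator tables hold counts of stop and covering reads (covering reads include stops), and the deposited HEK293T and CMC-only tables hold expected counts with fractions, used only to mark positions or note listing. The authors also deposited RPM, used for library totals. How reads of identical copies were counted is not given in the sources used here. The tables hold 246 further value columns that were not used. Positions with the same sequence around the stop are called copies.

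Stop and passing reads (covering less stops) were fitted with edgeR 4.0.16 (glmQLFit, glmQLFTest) in R 4.3.3. Each library had its own level and each table its own stop term, with a response to CMC and Terminator per population; the difference of the 2 responses was tested. Positions entered the fit where 2 or more libraries held 10 or more stop reads. Benjamini-Hochberg adjustment ran over all 26153, and calls were made under 0.05. SE is the fitted difference divided by the square root of F. At some mRNA and snRNA sites with few reads, the p-value of the test was larger than this SE alone would give. There the SE understates the uncertainty that the test used. That a replicate is a CMC-/CMC+ pair comes from the series' design text. As a check, deviations of the paired libraries from their group means correlated across positions at 0.32 in HCT116-shDKC1 and 0.15 in HCT116. These positions were listed in all 4 tables, so each had a response not below 0 in every table. That selection alone can raise the correlation, so the check cannot decide whether the pairing holds. On simulated counts for this comparison and its 26153 positions, 71 of 100 positions lowered and 80 of 100 raised by 1 log2 unit were called, with 9 false calls among 25953. The changed positions were drawn only from those with many treated stop reads. The spread was assumed, copies were drawn independently and no effect shared within a table was simulated. These rates therefore need not hold for the real counts.

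Members and lists were chosen with earlier results of these data known. Named were called uridines without overlap between populations, the strongest responders of each RNA class with enough stop reads, and the population-only uridines with the most stop reads. Others are said to be picked after their values were seen. Alternatives changed the block, tool (DESeq2 1.42.0), scale, centring, filter, denominator, copies and libraries. Intervals and SE cover no difference between cultures. mRNA regions come from the GENCODE annotation of the build, for the 84.1% of tested mRNA positions whose transcript and nucleotide matched it. Summaries used Python 3.11.15 with pandas 2.3.3, and figures matplotlib 3.10.9.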

Additional observations from a re-analysis of the deposited data

Results flagged for a closer look

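The difference between populations in the same contrast, treated against control, passed the test itself at 8 rRNA uridines. The fitted differences, HCT116-shDKC1 minus HCT116, were -1.13 at 28S nucleotide 4282, -0.93 at 18S base 1445, -0.91 at 28S nucleotide 4347, -0.87 at 28S nucleotide 4995, -0.80 at 28S nucleotide 3870, -0.77 at 28S nucleotide 4285, -0.76 at 18S base 918 and -0.75 at 28S nucleotide 3830 (log2 odds). At 18S base 1445 and base 918 the control libraries of the populations overlapped in stop percentage. At the 6 uridines of 28S rRNA the mean control stop percentage was higher in HCT116-shDKC1 than in HCT116 cells, and the part of this in the difference was not tested.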

How the results depend on the processing

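The number of uridine positions called lower was 24. It was 0 with no replicate block and with no replicate block plus centring on other bases (an alternative added after the data were seen), 9 with a replicate block by shared number, 12 with DESeq2, 0 with library totals, 0 with TMM, 9 with centring, 40 with a stricter filter, 10 with covering reads as denominator, 3 with 1 position per sequence and 0 to 21 with a table left out. For other bases, called lower at 3, it was 0 under each of these but the stricter filter, 0 to 8 with a table left out, and 0 to 1 for those called higher. On the treated side alone (0 calls), a block by shared number gave 17 uridines lower, and leaving out a table gave 0 to 14 uridines lower, 0 to 7 higher, 0 to 6 other bases lower and 0 to 150 higher. On the control side (0 calls) leaving out a table gave 0 to 3 uridines lower, 0 to 10 higher, 0 to 1 other bases lower and 0 to 185 higher. The highest of these counts came without HCT116-shDKC1 replicate 2, except the 1 other base on the control side, which came without HCT116-shDKC1 replicate 1. The median fitted difference of rRNA uridines was -0.0894. It was -0.0039 without the block and centred, -0.0055 centred, 0.0152 with library totals, 0.0492 with TMM, and -0.1682 to -0.0091 with a table left out. Over all positions it was -0.0775, against 0.0021, 0.0031 and 0.0082 without the block and centred, centred, and with TMM. At marked rRNA uridines it was -0.33, against -0.2464 without the block and centred, -0.245 centred, -0.1957 with library totals, -0.161 with TMM and -0.3752 to -0.2909 with a table left out. Uridine positions listed in 1 population only, copies included, numbered 2215 in HCT116-shDKC1 and 2516 in HCT116 cells. They were 229 and 359 at 10 or more stop reads, 85 and 154 at 20 or more, 5 and 6 with a response of at least 0.5 added, and 6892 and 8178 if absence from 1 table sufficed. The cause of these changes was not tested, beyond the fewer positions or libraries that some settings hold. The alternatives for DKC1 transcript level were not run, since no position of it is in all 4 tables. No position with a fitted difference nearer to 0 than -0.73 was called at this depth.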
